A study of Saccharomyces cerevisiae with 24 samples.

Results

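Transcript levels of 2 haploid yeast strains were compared inside the same flasks, where BY4741 and RM11-1a cells had been grown together. The 12 co-culture libraries, of 24 libraries in the whole series, make up this comparison, and each of them holds its own pair of values, the reads on the BY version and the reads on the RM version of every gene. BY4741 is a laboratory strain of the S288C lineage with deleted marker genes, and RM11-1a is a haploid derived from a vineyard isolate. Both haploids are of mating type a per the labels. The other 12 libraries came from a diploid hybrid of BY4741 and RM11-1alpha (a/alpha), in which both alleles share a nucleus. Per the labels there were 4 technical replicate cultures of each kind, started at an OD600 of 0.1 and harvested at 1.0 after growth at 30 °C with shaking at 250 rpm, followed by hot acid phenol extraction, oligo-dT selection and reverse transcription from oligo-dT. The labels do not tie the 12 libraries of a kind to the 4 cultures, and each haploid is a single strain, so the comparison describes these 2 strains and not laboratory and vineyard yeasts at large.

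A read can be given to a strain only where it covers a site that differs between the genomes. Of 4442 gene pairs in the files, 2776 held at least 100 reads over both strains and the 12 libraries and were compared, and 1666 did not (21 of them had no read). Levels are given in CPM, the usual depth-scaled read count, here relative to the strain's own column total, which removes the unequal share of the strains in the flask. Since the number of distinguishing sites differs between genes, a CPM may be set against the other strain's CPM of the same gene and not against another gene. All log2 ratios are RM over BY, so a positive value is higher in RM and a negative value higher in BY. A gene pair is called higher in a strain where edgeR's quasi-likelihood test, with Benjamini-Hochberg adjustment over all 2776 gene pairs, gives an adjusted p under 0.05.

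Several traits that separate BY from RM have been mapped to single genes, and these give the background for the groups below. HAP1 encodes a heme-responsive activator of respiratory and sterol genes, and the S288C lineage carries a transposon insertion in it. AMN1 encodes an antagonist of mitotic exit whose RM form keeps mother and daughter cells attached, while BY cells separate. Daughter cells cut the septum with secreted enzymes after division, and yeast with ample glucose mostly ferments while it keeps some respiration.

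The labels were first checked against marker genes. The files held 2 of 6 strain markers, 4 of 6 a-specific genes and 2 of 4 alpha-specific genes, so the others could not be checked. MET17, the sulfhydrylase of methionine synthesis that is deleted in BY4741, had 0 BY reads and 206 RM reads over the 12 libraries, which allows a BY share of up to 1.46% and makes RM at least 56.6-fold higher. This also bounds how many RM reads of that gene were put in the BY column, although MET17 overlaps another annotated gene, YLR302C. LYS2, for lysine synthesis, had 586 BY and 590 RM reads in the co-culture (log2 -0.27, edgeR adjusted p = 0.00826, not called by DESeq2). STE2, the receptor for the alpha pheromone, was read abundantly in both strains, at 5309 to 6038 CPM (median 5637) in BY and 7458 to 8696 CPM (median 8228) in RM. The alpha-specific genes STE3, the receptor for the a pheromone, and SAG1, the alpha agglutinin, had 3 reads (2 BY, 1 RM) and 17 reads (5 BY, 12 RM) in all.

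The libraries held 199838 to 227175 assigned reads each, 90374 to 102332 for BY and 109464 to 124843 for RM. BY supplied 45.18% ± 0.10 of the reads (SD over 6 summed libraries, 44.96 to 45.35% over the 12 single libraries). Fewer cells of a strain and less RNA per cell cannot be told apart from this share. Groups of libraries in which no pair differed by more than sampling noise were summed, which left 6 summed libraries. Of the 59 pairs of libraries in different sums, 13 did not differ by this measure either (chi-square p of at least 0.05), so the sums are not all set apart from each other. They outnumber the 4 cultures, so p-values do not measure the spread between cultures, and the spread between these libraries may be technical. The common dispersion, which is the fit's spread beyond counting error, was at its lowest allowed value (9.77e-05). The p-values therefore rest largely on the counting error of the reads.

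Strain differences were widespread and mostly small. Of the 2776 gene pairs 1109 were called (39.9%), 482 higher in RM (17.4%) and 627 higher in BY (22.6%), and the counts for gene lists are to be read against these shares. The median size of a called difference was 1.46-fold. Beyond 2-fold there were 151 called gene pairs, 61 higher in RM and 90 higher in BY, and beyond 4-fold 35, of which 16 were higher in RM and 19 in BY. In 96 gene pairs (3.46%) every one of the 12 RM values lay above every BY value, and in 85 (3.06%) every BY value lay above every RM value. The direction of small differences depends on the scaling: the median log2 ratio over all gene pairs was -0.06 as given here and -0.00 with TMM scaling, which changed the share of calls in the RM direction from 43.5% to 51.1%. DESeq2, with its own size factors, called 586 gene pairs (320 higher in RM and 266 in BY, 54.6% in the RM direction), all of them among the 1109 and in the same direction. Near the read minimum, the 100 gene pairs with 100 to 109 reads had a median log2 ratio of -0.20 and the 127 excluded pairs with 90 to 99 reads one of -0.25.

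**Figure D1:**
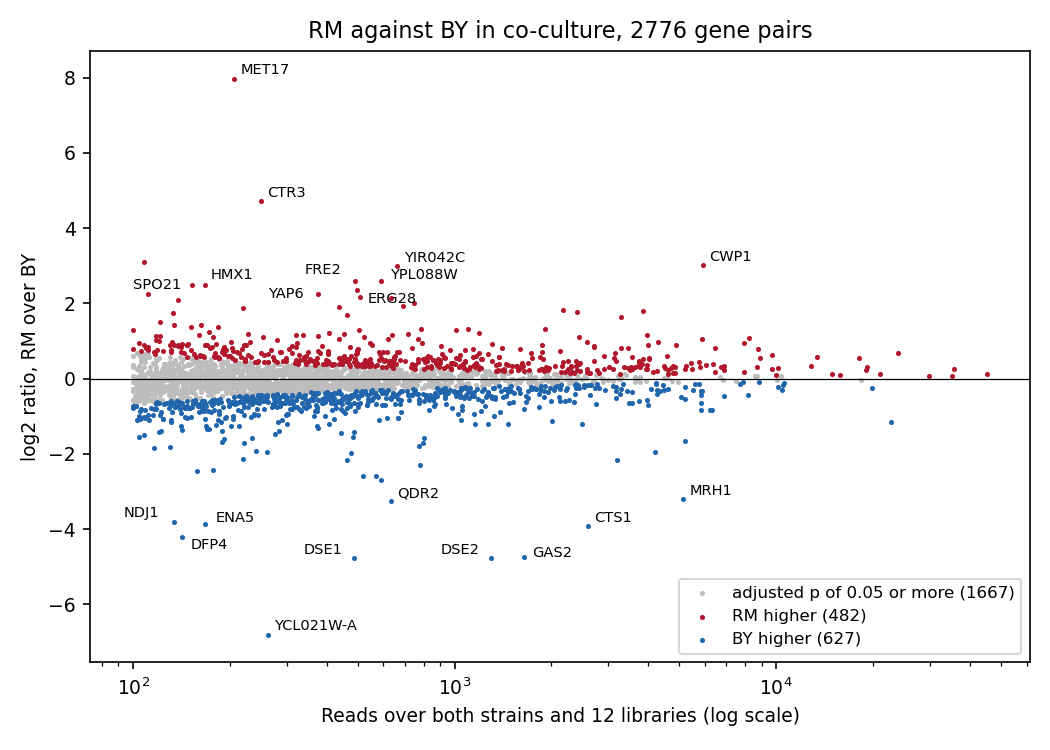
Each point is a gene pair, with its reads over both strains and the 12 co-culture libraries on the horizontal log axis and its log2 ratio, RM over BY, on the vertical axis. Red and blue mark the 482 and 627 gene pairs called higher in RM and in BY, and the labelled points are the 10 largest in each direction with at least 120 reads in the higher column. MET17 and YCL021W-A had 0 and 2 reads in the lower column, so their plotted heights depend on the small count that the fit adds.

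Among the 10 largest differences towards RM were genes of metal uptake, the cell wall and sterol synthesis. CWP1 (YKL096W, chrXI:261132-261851 in the R64 assembly), which encodes an abundant mannoprotein of the cell wall, had 326 to 583 CPM (median 486) in BY and 3328 to 4323 CPM (median 3798) in RM. All 12 RM values lay far above all BY values, and the ratio was 8.15-fold (log2 3.03, SE 0.05). Each SE is derived from the test statistic and can understate the error of a large ratio. CTR3 (YLR411W, chrXII:947253-947978), a high-affinity copper transporter, had 7 BY and 243 RM reads (log2 4.71, SE 0.31, edgeR adjusted p = 1.64e-51). Its RM values ran from 113 to 233 CPM and its BY values from 0 to 43.5 CPM, without overlap. FRE2 (YKL220C), a ferric and cupric reductase of the plasma membrane, stood at 9.9 to 98.6 CPM (median 48.3) in BY and 220.1 to 393 CPM (median 287) in RM. HMX1 (YLR205C), the heme oxygenase that breaks heme down and releases its iron, stood at 0 to 41.6 CPM (median 15.8) in BY and 51.4 to 164 CPM (median 104) in RM. Neither gene overlapped between the strains, and the ratios were 6.07-fold and 5.58-fold. ERG28 (YER044C), which tethers enzymes of ergosterol synthesis, was 5.08-fold higher in RM (log2 2.34, SE 0.17). The transcription factor gene YAP6 was 4.75-fold higher, YPL088W, which encodes a putative aryl alcohol dehydrogenase, 6.01-fold, and the uncharacterised YIR042C 7.91-fold. SPO21, which encodes a spindle pole body protein of meiosis, was 5.6-fold higher on 19 BY and 133 RM reads, and its library values overlapped.

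Towards BY the largest differences included genes for septum cutting, membrane transport and meiosis. GAS2 (YLR343W, chrXII:816094-817761), a glucan-modifying enzyme known from sporulation, stood at 1205 to 1498 CPM (median 1345) in BY and 24.4 to 69.4 CPM (median 50.1) in RM, a 26.6-fold difference. MRH1 (YDR033W, chrIV:508147-509109), a plasma membrane protein related to the heat shock protein Hsp30, stood at 3157 to 4580.5 CPM (median 3966) in BY and 336 to 569.8 CPM (median 407) in RM, 9.25-fold higher in BY. QDR2 (YIL121W), a multidrug transporter, stood at 366 to 639 CPM (median 463) in BY and 24.7 to 94.96 CPM (median 42.1) in RM (9.64-fold, log2 -3.27, SE 0.15). In all 3 genes the lowest BY library was above the highest RM library. ENA5, a sodium pump gene, had 155 BY and 12 RM reads, but it has 2 near-identical neighbours, so the assignment of reads among them is uncertain. DFP4, a membrane protein gene of a subtelomeric family, had 134 BY and 8 RM reads. NDJ1, which encodes a telomere protein of meiosis, had 124 BY and 10 RM reads. The uncharacterised YCL021W-A had 260 BY and 2 RM reads, a scaled ratio of 157.7 with a 95% counting interval of 43.2 to 1309, which covers counting error only. DSE1, DSE2 and CTS1, the other 3 of these 10 genes, belong to the septum genes.

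**Figure D2:**
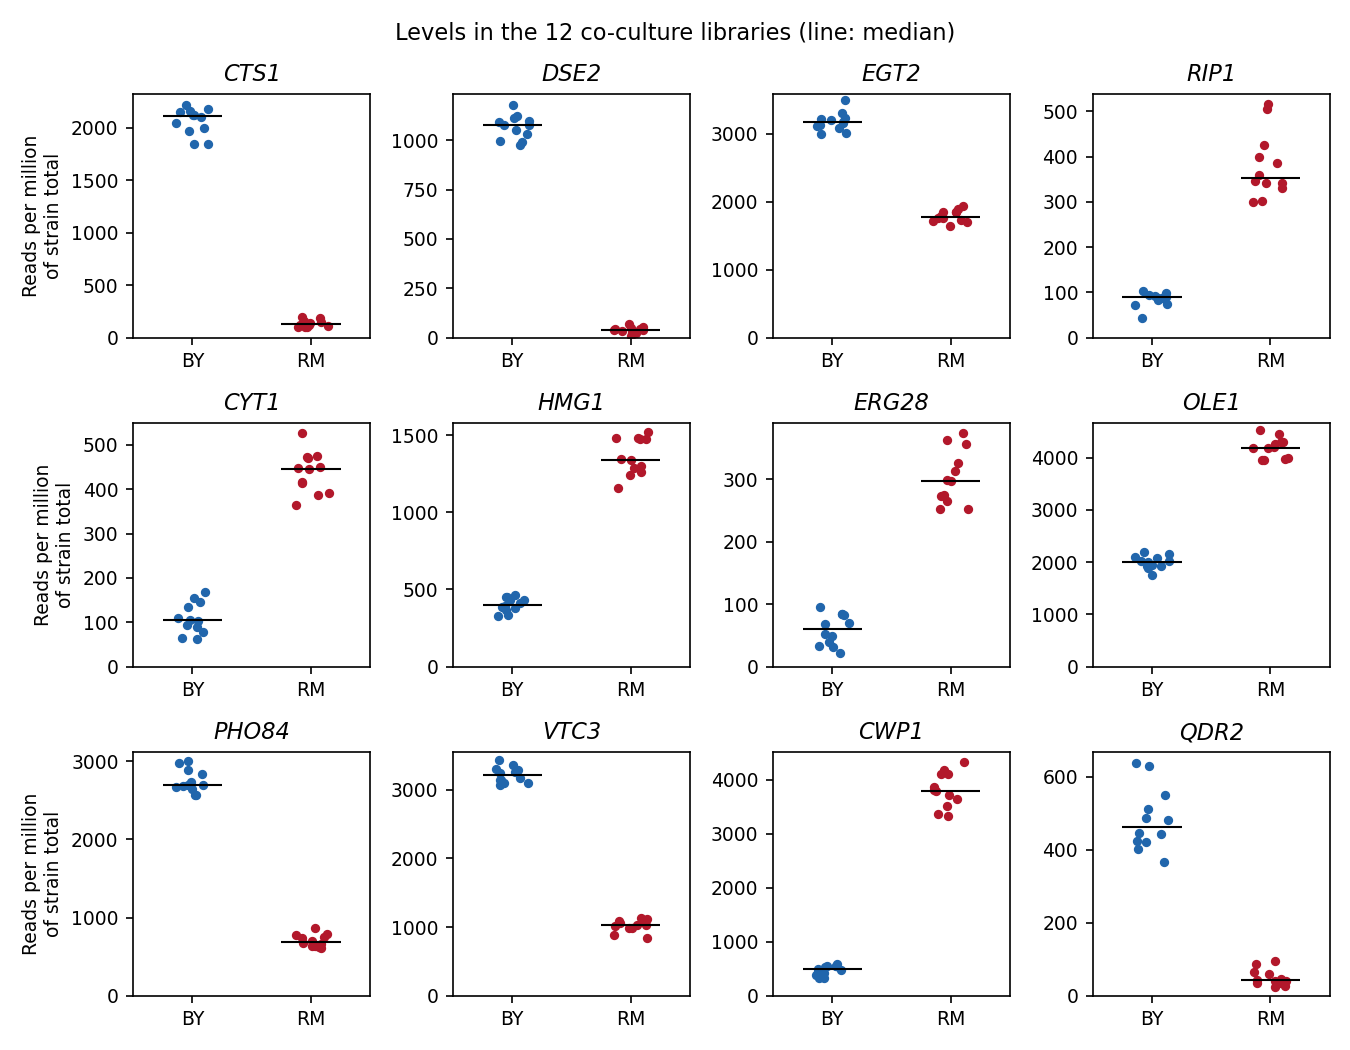
Each panel gives the level of a gene, in CPM of the strain's own total, in the BY (blue) and RM (red) columns of the 12 co-culture libraries, with points for libraries and a line for the median. No panel shows overlap between the strains: CTS1, DSE2, EGT2, PHO84, VTC3 and QDR2 were higher in BY, and RIP1, CYT1, HMG1, ERG28, OLE1 and CWP1 in RM.

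Genes for separating daughter from mother cells were lower in RM. Of 11 tested members 9 were called higher in BY, none in RM, and 2 were not called (median log2 -1.40, against -0.06 over all gene pairs), and DESeq2 called the same number. SCW11, a glucanase of the cell wall, stood at 266 to 492 CPM (median 384) in BY and 24.03 to 104 CPM (median 58.3) in RM. DSE4, another glucanase of the septum, stood at 87.9 to 157 CPM (median 109) in BY and 0 to 48.8 CPM (median 12.7) in RM. EGT2, a cell wall protein gene switched on early in G1, stood at 3001 to 3498 CPM (median 3165) in BY and 1645 to 1942 CPM (median 1777) in RM. Library values of the strains did not overlap in any of the 3, although the size of the difference ran from 1.77-fold in EGT2 to 6.08-fold in SCW11. Larger still were the differences of CTS1, the chitinase that cuts the septum (15.1-fold), of DSE2, a glucanase-like secreted protein (27.5-fold), and of DSE1 (27.2-fold). SUN4, a cell wall protein of septation (2.29-fold), BUD9, a bud site protein (2.65-fold), and DSE3 (2.13-fold) were also higher in BY. ASH1, the daughter-specific repressor of mating type switching, had a log2 ratio of 0.43 (edgeR adjusted p = 0.0959, and 0.0342 without summed replicate 1), and PRY3, a sterol-binding cell wall protein, one of -0.26 (adjusted p = 0.23).

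AMN1, the antagonist of mitotic exit named above, stood at 544 to 834 CPM (median 731) in BY and 220.1 to 429 CPM (median 294) in RM, without overlap and 2.32-fold higher in BY.

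Many respiratory chain genes were higher in RM, and all those tested of complex III and cytochrome c. These 9 genes were called with log2 ratios from 0.86 to 2.17 and a median of 1.29, and DESeq2 called all 9 too. RIP1, the iron-sulfur subunit, stood at 43.5 to 104 CPM (median 88.8) in BY and 299.6 to 516 CPM (median 352) in RM. CYT1, cytochrome c1, stood at 62.9 to 168 CPM (median 104) in BY and 364 to 527 CPM (median 446) in RM. COR1, a core subunit, stood at 623 to 867 CPM (median 711) in BY and 1059.7 to 1471 CPM (median 1345) in RM. None of the 3 overlapped, with ratios of 4.43-fold, 4-fold and 1.82-fold. CYC1, cytochrome c, reached a log2 ratio of 2.17 and the small subunit gene QCR10 one of 1.90. CYC7, the isoform of cytochrome c made in low oxygen, had 28 BY and 55 RM reads and was not compared.

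In cytochrome oxidase the subunits went both ways. COX8, COX4, COX12 and COX13 were higher in RM, COX8 by 2.51-fold and COX13 by 1.77-fold. COX5B, the subunit isoform used in low oxygen, was higher in BY, at 41.2 to 158 CPM (median 135) in BY and 8.22 to 40.7 CPM (median 21.7) in RM. The lowest BY library stood just above the highest RM library, and the ratio was 5.39-fold. COX9 was the other subunit gene called higher in BY (log2 -0.81), a call that DESeq2 did not make. Of 10 ATP synthase genes 6 were higher in RM, 1 in BY and 3 were not called. ATP1, the catalytic domain's alpha subunit, stood at 498 to 673 CPM (median 569) in BY and 1049 to 1455 CPM (median 1240.1) in RM. ATP2, the beta subunit, stood at 868 to 1295 CPM (median 1025) in BY and 1726 to 2217 CPM (median 2004) in RM. The inhibitor gene INH1 was higher in RM as well (log2 1.04), while STF2, associated with stress and desiccation tolerance, was 2.41-fold higher in BY. Among 9 dehydrogenases that feed the chain 6 were higher in RM and 1 in BY, DLD2 (log2 -0.42), which DESeq2 did not call. NDE1, the external NADH dehydrogenase, stood at 513 to 707 CPM (median 555) in BY and 1624 to 2115 CPM (median 1812) in RM, 3.1-fold higher in RM. SDH1 and SDH4, subunits of succinate dehydrogenase, were 2.68-fold and 1.78-fold higher in RM, and their library values overlapped.

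Motifs were searched on both strands of promoters, taken as 250 bases before to 50 bases after the start codon in the R64 sequence. Sites further upstream were not searched, so a window without a match does not show that the gene lacks the site. CCAAT, the core of the sites of the Hap2-Hap3-Hap4-Hap5 activator, occurs in 43.3% of 6007 promoters. It was present in 6 of 10 genes of complex III and cytochrome c and in 10 of 12 ATP synthase genes. The longer Hap1 motif was found in 0 of 10 complex III and cytochrome c windows, against 0.133% of all. At so low a share no match was the likely outcome, so this count does not show that these genes lack Hap1 sites. The windows of RIP1 (chrV:107010-107309, plus strand) and ATP2 (chrX:647357-647656, plus strand) are shown as the called members with the match and the smallest p in each list, with CCAAT, or its complement ATTGG, in capitals:
RIP1: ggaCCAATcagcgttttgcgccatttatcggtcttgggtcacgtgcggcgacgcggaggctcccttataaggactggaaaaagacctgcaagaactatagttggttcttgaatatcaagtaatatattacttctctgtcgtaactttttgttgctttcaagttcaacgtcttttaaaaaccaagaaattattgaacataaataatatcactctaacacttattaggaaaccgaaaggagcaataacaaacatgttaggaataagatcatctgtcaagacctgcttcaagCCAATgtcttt
ATP2: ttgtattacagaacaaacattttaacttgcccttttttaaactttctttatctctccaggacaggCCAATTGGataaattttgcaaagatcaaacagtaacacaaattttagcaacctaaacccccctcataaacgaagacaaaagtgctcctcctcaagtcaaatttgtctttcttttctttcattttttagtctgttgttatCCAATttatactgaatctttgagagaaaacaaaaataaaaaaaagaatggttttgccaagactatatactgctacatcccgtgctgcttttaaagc

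Genes of the citric acid cycle had more calls in BY. Of 13 tested genes 1 was higher in RM, 7 were higher in BY and 5 were not called (median log2 -0.27). CCAAT was present in 8 of 14 of their windows, against 43.3% of all. The 3 with the smallest p were subunits of pyruvate dehydrogenase, LPD1 (1.5-fold higher in BY), PDA1 (1.35-fold) and PDB1 (1.23-fold), and in each the libraries did not overlap. LSC1, a subunit of succinyl-CoA ligase, was the member higher in RM (log2 0.33). Of 8 mitochondrial carriers 4 were higher in RM and 2 in BY (2 and 2 by DESeq2). PET9, the main ADP/ATP exchanger, stood at 1739.8 to 2201 CPM (median 2072) in BY and 3593 to 4379 CPM (median 3942) in RM. MIR1, the phosphate carrier, was 2.31-fold higher in RM, and AAC3, the ADP/ATP exchanger of anaerobic cells, 2.41-fold higher in BY.

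Among 6 heme genes 4 were higher in RM and 1 in BY. HEM1, the first enzyme of heme synthesis, was 1.68-fold higher in RM, while HEM13, the oxygen-dependent step that low heme induces, was higher in BY (log2 -0.75, not called by DESeq2). YHB1, the flavohemoglobin, was 1.2-fold higher in RM. The 31 tested mitochondrial ribosomal protein genes had 8 calls in RM, 1 in BY and 22 without a call (median log2 0.31), and DESeq2 called 3 in RM and 0 in BY.

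**Figure D3:**
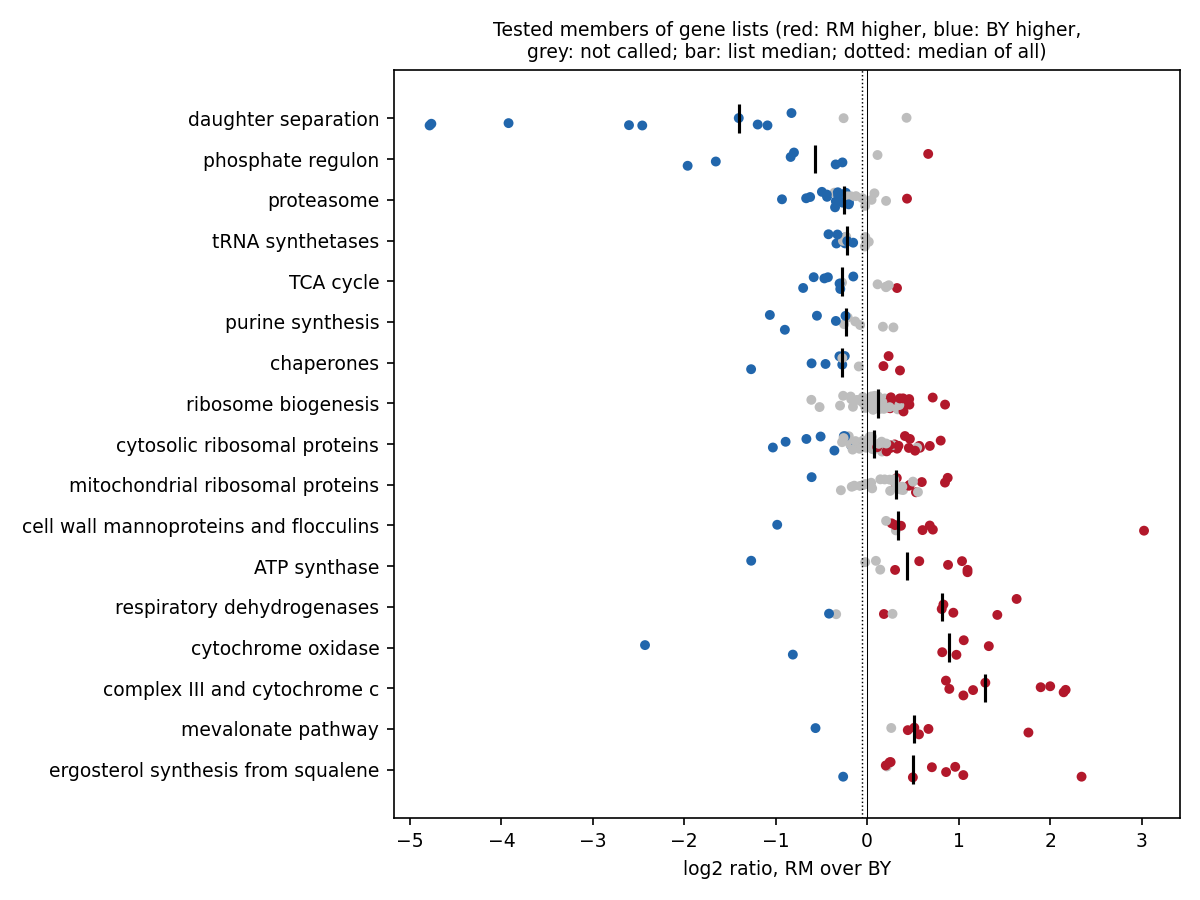
Points are the log2 ratios, RM over BY, of the tested members of 17 gene lists, red and blue where called higher in RM or BY and grey where not called. Bars give the list medians, from -1.40 for daughter separation to 1.29 for complex III and cytochrome c, and the dotted line the median of all gene pairs (-0.06).

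Sterol genes were higher in RM along most of the pathway. In the mevalonate part 5 of 7 were higher in RM, 1 in BY and 1 was not called, and from squalene to ergosterol 9 of 11 were higher in RM, 1 in BY and 1 was not called. HMG1, the HMG-CoA reductase that limits the flux, stood at 327 to 465 CPM (median 401) in BY and 1156 to 1522 CPM (median 1339.8) in RM. Its paralogue HMG2 was higher in BY (log2 -0.56), so the isozymes were opposed. ERG25, a demethylation enzyme, stood at 1285 to 1642 CPM (median 1439) in BY and 2827 to 3074 CPM (median 2971) in RM. ERG11, the lanosterol demethylase, was 1.95-fold higher in RM, and ERG10 and ERG20 of the early part 1.48-fold and 1.43-fold. NCP1, the reductase that serves ERG11, was the squalene list's member higher in BY (log2 -0.26, not called by DESeq2). The sterol response element TCGTATA was found in 1 of 12 windows of the squalene list (ERG2) and 1 of 7 of the mevalonate list (ERG8), against 4.15% of all.

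Of 11 genes of fatty acid synthesis 6 were higher in RM and 3 in BY. OLE1, the only fatty acid desaturase of yeast, stood at 1749 to 2199 CPM (median 2004) in BY and 3953 to 4533 CPM (median 4193) in RM. ACS2, the acetyl-CoA synthetase of cells on glucose, stood at 686 to 1095 CPM (median 936) in BY and 1812 to 2343 CPM (median 1994) in RM. Both were without overlap. FAA4, which activates imported fatty acids, was 1.81-fold higher in BY, as were MGA2, an activator of OLE1 (log2 -0.58), and the elongase ELO1 (log2 -0.49). Of the phospholipases B, PLB2 stood at 555 to 751 CPM (median 616) in BY and 2009.8 to 2471 CPM (median 2208) in RM and PLB1 was 2.16-fold higher in RM, whereas PLB3 was not called (log2 -0.01). Flippase gene DNF1 was 1.35-fold higher in BY, and DESeq2 did not call it (adjusted p = 0.0624).

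Phosphate genes were mostly higher in BY, with 6 of 8 tested members higher in BY, 1 in RM and 1 not called (median log2 -0.57), and DESeq2 called 4 in BY. PHO84, the high-affinity phosphate transporter, stood at 2569 to 3004 CPM (median 2694) in BY and 605 to 863 CPM (median 689.9) in RM. VTC3, of the complex that makes vacuolar polyphosphate, stood at 3076 to 3429 CPM (median 3212) in BY and 847 to 1133 CPM (median 1024) in RM. PHO81, the inhibitor that switches the pathway on, stood at 687 to 1008 CPM (median 811) in BY and 402 to 569 CPM (median 462) in RM. None of these overlapped. The single member higher in RM was PHO87, a low-affinity transporter (log2 0.67). CACGTG, the Pho4 site, was present in 4 of 15 windows, those of PHO86, PHO87, PHO91 and SPL2, against 2.91% of all. Sites upstream of these short windows were not searched, so PHO84, VTC3 and PHO81 may have sites there.

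Iron genes had 6 members higher in RM, 1 in BY and 6 not called of 13. Besides FRE2 and HMX1, the reductase FRE1 was 1.52-fold higher in RM and the permease FTR1 and siderophore transporter ARN1 had log2 ratios of 0.67 and 0.65. FET3, the ferroxidase that works with FTR1, was the member higher in BY (log2 -0.42). For copper and zinc 5 of 11 were higher in RM and 4 in BY, and DESeq2 called 4 and 1. The superoxide dismutase SOD1 stood at 1948 to 2456 CPM (median 2086) in BY and 2514 to 2992 CPM (median 2765) in RM, and FRE7, a reductase induced by low copper, was 2.31-fold higher in BY.

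Amino acid pathways did not move as blocks, but single steps differed strongly. BAT2, the cytosolic branched-chain aminotransferase, stood at 360.3 to 654 CPM (median 545) in BY and 59.5 to 145 CPM (median 107) in RM, without overlap, while its mitochondrial paralogue BAT1 was not called (log2 0.02). ILV3, a dehydratase of the pathway, was 1.62-fold higher in BY and ILV6, the regulatory subunit of the first step, 1.49-fold higher in RM. In sulfur metabolism 5 of 13 were higher in RM and 2 in BY. SAM1, an S-adenosylmethionine synthetase, was 1.71-fold and MMP1, the S-methylmethionine permease, 2.07-fold higher in RM. CYS4, of cysteine synthesis, was 1.27-fold higher in BY, as was CBF1, a regulator of these genes (log2 -1.55). MET17 deletion in BY accompanies these values, and its part in them was not tested. HIS1, the first step of histidine synthesis, was 1.48-fold higher in BY. ARG4 and ARG7, enzymes of arginine synthesis, were 1.44-fold and 1.51-fold higher in BY, and their library values overlapped (ARG4 was not called by DESeq2). Of 14 tRNA synthetases 7 were higher in BY and none in RM (2 by DESeq2), and the smallest p among them was that of GRS1 (1.26-fold).

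Of 10 amino acid permeases 5 were higher in RM and 1 in BY, with 3 and 1 by DESeq2. That 1 was TAT1, for valine, leucine and tyrosine, at 1985 to 2378 CPM (median 2181) in BY and 369.9 to 608 CPM (median 470.4) in RM. GNP1, for glutamine, stood at 2719 to 3037 CPM (median 2927) in BY and 4101 to 4701 CPM (median 4474) in RM. Neither overlapped. Polyamine genes had 5 of 7 members higher in RM and none in BY (3 by DESeq2). TPO4, an exporter, was 3.22-fold higher, and SPE1, ornithine decarboxylase, 1.24-fold. For purines 5 of 11 were higher in BY and none in RM (3 and 0 by DESeq2, 5 and 2 with TMM scaling), led by ADE1 at 618 to 869.7 CPM (median 715) in BY and 318 to 520.3 CPM (median 372) in RM. In pyrimidine synthesis all 7 were called, 4 in RM and 3 in BY (1 and 2 by DESeq2), among them URA2 (1.32-fold higher in RM), the first enzyme, and URA8 (1.63-fold higher in BY), a CTP synthase.

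Sugar genes differed modestly. Of 10 glycolytic and fermentative genes 6 were higher in RM and 1 in BY. HXK2, the main hexokinase, was the member higher in BY, at 2486 to 3025 CPM (median 2840.3) in BY and 1624 to 2054 CPM (median 1781) in RM. ALD6, the cytosolic acetaldehyde dehydrogenase, stood at 1003 to 1357 CPM (median 1066) in BY and 1879 to 2551 CPM (median 2114) in RM. PGI1, phosphoglucose isomerase, was 1.1-fold higher in RM, a difference small in size although the 12 RM libraries lay above the 12 BY libraries. HXT2, a hexose transporter (1.63-fold), and the kinase gene SNF1 (1.63-fold) were higher in RM. In the Ras and protein kinase A pathway 5 of 12 were higher in BY, none in RM and 7 not called (3 in BY by DESeq2, 5 in BY and 1 in RM with TMM scaling). GPB2, an inhibitor of the pathway, stood at 349.8 to 583 CPM (median 489) in BY and 104 to 205 CPM (median 159) in RM, 2.97-fold higher in BY, and the exchange factor gene CDC25 was 1.46-fold higher.

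Reserve and stress lists held more calls in BY than in RM with edgeR, but not throughout with DESeq2. For trehalose and glycogen 4 of 8 were higher in BY and 1 in RM (2 and 0 by DESeq2), with GSY2, the main glycogen synthase, at 243 to 409 CPM (median 297) in BY and 34.7 to 122 CPM (median 77.0) in RM. Among 6 tested stress genes known as targets of the activators Msn2 and Msn4, 3 were higher in BY, 1 in RM and 2 not called, with 0 in RM and 1 in BY by DESeq2. One of the 3 was HSP26, a small heat shock protein, at 82.4 to 243 CPM (median 142) in BY and 8.52 to 59.9 CPM (median 32.7) in RM. Of 11 chaperone genes 6 were higher in BY and 3 in RM (3 and 3 by DESeq2), and those higher in RM were SSC1 and HSP60 of mitochondria and KAR2 of the endoplasmic reticulum. The disaggregase HSP104 stood at 157 to 274 CPM (median 212) in BY and 51.1 to 152 CPM (median 82.2) in RM. In GSY2, HSP26 and HSP104 no RM library reached the lowest BY library. Among 11 oxidative stress genes 5 were higher in BY and 2 in RM: GTT1, a glutathione transferase, was 2.64-fold higher in BY, and TSA1, the main peroxiredoxin, 1.37-fold higher in RM.

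Mannoproteins of the wall were mostly higher in RM, with 7 of 10 higher in RM, 1 in BY and 2 not called. Beside CWP1, CCW12 stood at 6347 to 7344 CPM (median 6944) in BY and 10598 to 11651 CPM (median 11255) in RM. TIP1 was the exception, 1.98-fold higher in BY. Glucan and chitin genes had 4 of 16 in RM and 6 in BY (4 and 3 by DESeq2), where 17.4% and 22.6% of all gene pairs were called. FKS1, the glucan synthase, was 1.17-fold higher in RM and the glucanase-like SCW4 1.57-fold higher in BY. Of 13 cyclins and cell cycle inhibitors 2 were higher in RM and 4 in BY (2 and 0 by DESeq2), shares near those of all gene pairs. CLN3, the first cyclin of G1, stood at 129 to 285 CPM (median 203) in BY and 294 to 489 CPM (median 365) in RM.

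Proteasome and ribosome genes held calls in opposite directions. Proteasome genes had 15 of 25 higher in BY, 1 in RM and 9 not called (median log2 -0.26), but 4 and 0 by DESeq2 and 13 and 1 with TMM scaling. PRE7, a core subunit, was 1.91-fold higher in BY, and RPN3 and RPN1, of the regulatory particle, 1.21-fold and 1.25-fold. Ribosome biogenesis genes had 12 of 44 higher in RM, none in BY and 32 not called (median log2 0.11), but 1 by DESeq2 and 16 with TMM scaling. Cytosolic ribosomal proteins had 19 of 50 in RM and 9 in BY (16 and 2 by DESeq2, 24 and 7 with TMM scaling). RPL24B, of the large subunit, stood at 1100.1 to 1488 CPM (median 1187) in BY and 1734 to 1989 CPM (median 1812) in RM, without overlap, but it has a near-identical copy, so the assignment of its reads is uncertain.

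Of the mating genes, STE2 was 1.45-fold and BAR1, a secreted protease of a cells against alpha pheromone, 1.37-fold higher in RM. MFA1, the a pheromone, was 2.06-fold and STE6, its exporter, 1.17-fold higher in BY, so the 4 a-specific genes were split. Of 12 tested pheromone pathway genes 6 were higher in RM and 3 in BY (3 and 2 by DESeq2). TEC1, the filamentous growth factor, stood at 20.6 to 146 CPM (median 73.6) in BY and 111 to 222 CPM (median 179) in RM, higher in RM in all 12 libraries though the ranges overlapped. FUS3, the mating kinase, was 1.66-fold higher in RM and SST2, which damps the signal, 1.43-fold higher in BY. TGAAACA, the Ste12 site, was present in 10 of 19 windows against 7.49% of all. The TEC1 window (chrII:408919-409218, plus strand) is shown because its 2 matches, in capitals, belong to a called member:
TEC1: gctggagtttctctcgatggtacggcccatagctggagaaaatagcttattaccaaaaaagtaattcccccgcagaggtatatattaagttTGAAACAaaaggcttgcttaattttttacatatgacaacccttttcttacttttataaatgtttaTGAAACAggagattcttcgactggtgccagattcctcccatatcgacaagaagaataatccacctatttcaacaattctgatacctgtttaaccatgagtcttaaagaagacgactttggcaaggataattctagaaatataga

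Among 12 genes known to be polymorphic between the strains, mostly regulators but also the transporter gene PHO84, 6 were called. All 6 were higher in BY (4 by DESeq2, while TMM scaling added GPA1 as higher in RM). Besides PHO84 and AMN1, HAP1 stood at 420.2 to 588 CPM (median 490.4) in BY and 111 to 213 CPM (median 154) in RM, 3.31-fold higher in BY without overlap. The BY lineage carries the transposon insertion in HAP1 named above, and its bearing on these read counts was not tested. RPI1, a regulator of cell wall genes, was 1.59-fold higher in BY. MKT1 (1.29-fold) and the zinc regulator ZAP1 (1.58-fold) were higher in BY by edgeR, and DESeq2 did not call them (adjusted p = 0.2 and 0.116). IRA2, GPA1, STB5, OAF1, CAT5 and SIR3 were not called, with log2 ratios from -0.21 to 0.28.

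The same ratio was measured between the 2 alleles of the hybrid, which share a nucleus. In 2661 gene pairs with at least 100 reads in each kind of culture, 535 were called between the alleles of the hybrid (20.1%), 302 with RM higher (11.3%) and 233 with BY higher (8.76%), against 1066 of the same pairs in the co-culture. Of those 1066, 282 (26.5%) were called in the same direction in the hybrid, which is 52.7% of the hybrid's 535, 51 were called in the opposite direction and 733 were not called. The ratio itself differed between co-culture and hybrid (edgeR interaction test) in 566 gene pairs (21.3%), 232 shifted towards RM and 334 towards BY in the co-culture, and in 477 of the 1066 (44.7%). This split depends on the scaling, with 319 and 233 under TMM scaling (57.8% towards RM) and 188 and 114 by DESeq2 (62.3%). Of the 131 gene pairs beyond 2-fold in the co-culture, 63 (48.1%) were called in the same direction in the hybrid and 83 (63.4%) differed from it.

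Some large differences were of like size in the hybrid and others were not found there. MRH1 had a log2 ratio of -3.21 in the co-culture and -3.30 in the hybrid, a difference of 0.09 (SE 0.10, adjusted p = 0.609). CTR3 had 4.71 and 4.87, and YIR042C 2.98 and 3.19. In contrast, QDR2 had -3.27 and 0.29 (difference -3.56, SE 0.21, adjusted p = 3.99e-60), and FRE2 2.60 and 0.26 (difference 2.34, SE 0.35, adjusted p = 8.48e-10). Of the 11 septum genes 10 differed from the hybrid, where the list's median was 0.14, and so did all 9 genes of complex III and cytochrome c, with a hybrid median of 0.11. The alleles of OLE1 were reversed, with a log2 ratio of 1.07 in the co-culture and -1.14 in the hybrid (difference 2.21, SE 0.05). BAT2 (-2.29 and 0.59) and RPI1 (-0.67 and 0.98) were reversed as well. CWP1 kept its direction at a smaller size, with 3.03 and 1.22 (difference 1.81, SE 0.09, adjusted p = 6.35e-83). LYS2 had 695 BY and 2 RM reads in the hybrid, whose RM parent is RM11-1alpha and not RM11-1a.

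**Figure D4:**
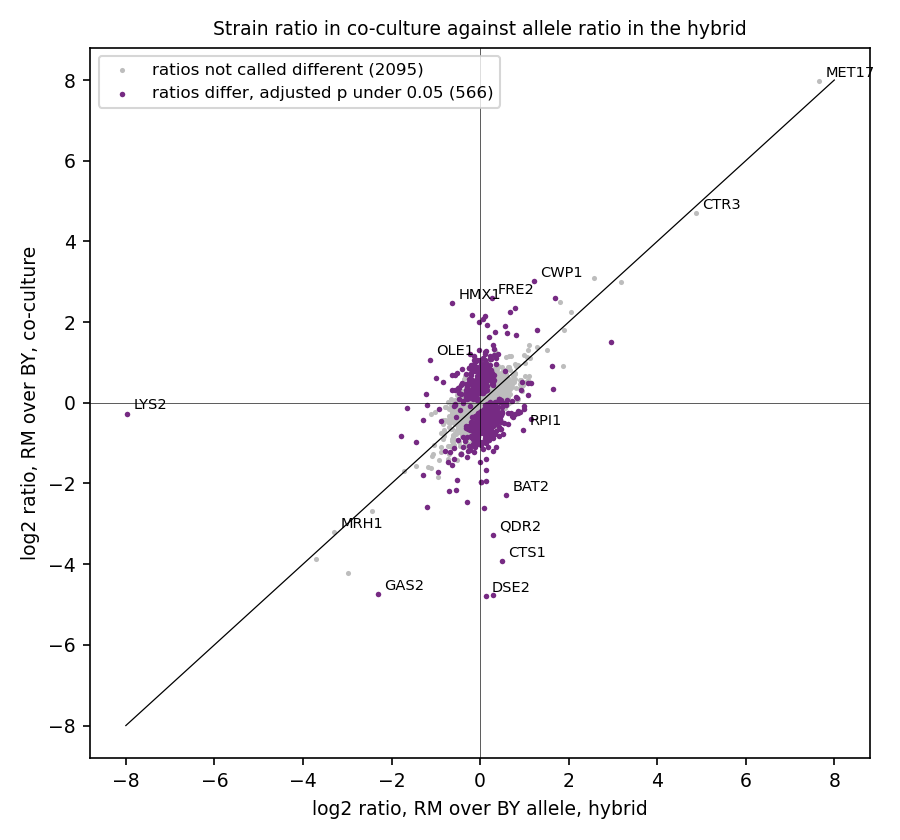
Each of 2661 gene pairs is placed by its log2 ratio, RM over BY, between the alleles of the hybrid (horizontal) and between the strains in co-culture (vertical), with the diagonal marking equal ratios. Purple marks the 566 gene pairs whose ratios differ: DSE2, QDR2 and CTS1 lie far below 0 on the vertical axis but slightly above it on the horizontal axis, where CTS1 (0.50) was called higher for the RM allele, while MRH1 and CTR3 lie near the diagonal.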

How the data were processed

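The deposited files are tables of raw read counts, per the file headers, with a BY and an RM column for each orthologous gene pair, in which only reads at polymorphic sites enter. Which aligner, build and filters the authors used is not given in the sources. How reads were assigned could shift both columns unequally, and this was not tested gene by gene. In the hybrid, which holds both alleles, BY supplied 50.09 to 50.52% of the reads over the 12 libraries.

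By locus tag, 4325 of 4442 gene pairs were found in the R64 assembly, the source of gene names, positions and promoter windows, and 117 did not. Co-culture libraries were summed where every pair in the sum had a p of at least 0.05 (chi-square test over counts of at least 20 reads, complete linkage; 16 of all 66 pairs differed with p under 0.001), giving library 1, libraries 2, 3 and 4, libraries 5 and 6, 7 and 8, 9 and 12, and 10 and 11, numbered summed replicates 1 to 6. The hybrid likewise gave 6. BY and RM columns of the same library were compared as a pair with edgeR 4.0.16 in R 4.3.3 (quasi-likelihood F test), with the summed library as a block, because both columns come from the same tube, and each column's own total as library size. SE is the absolute log2 ratio over the square root of F. That statistic tests against no difference, so for large ratios the SE can fall below counting error. The common dispersion was 9.77e-05 in the main fit and in the joint fit with the hybrid, near the level of counting error. It is the lowest value that edgeR's search allows, so it is a bound and not an estimate. The hybrid comparison used a joint fit of 2661 gene pairs with an interaction term. Adjustment of p-values followed Benjamini and Hochberg (threshold 0.05). The procedure was tested on simulated data, drawn independently with a spread near counting error. That test does not cover larger spread between cultures or unequal read assignment. Medians and ranges of CPM are over the 12 libraries.

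Alternatives were DESeq2 1.42.0, TMM scaling, other read minimums, single libraries as units, no block and leaving out each summed replicate. Near-identical coding sequences were sought with blastn 2.17.0. The members, 51 gene lists and tests were chosen with earlier results of these data known. Genes were named by rule: the 10 largest called ratios in each direction with at least 120 reads in the higher column and the same direction in all 6 summed libraries, the 3 called members with the smallest p of each list, and all members of the strain marker, polymorphic regulator, daughter separation and mating type lists. Some results that the rule names are not reported here. Other list members are named to complete a list's count, with their values seen. For a column at 0, 3 reads over the group served as the floor.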

Additional observations from a re-analysis of the deposited data

Results flagged for a closer look

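In 19 named genes the log2 ratio of 1 of the 6 summed replicates lay apart from the other 5, by Dixon's criterion at the 95% level, where chance alone would give about 1 in 20. Of 159 named genes in the comparison, those without reads of a strain in a summed replicate, such as MET17, were not examined. Of the 19 flagged genes, 9 lay apart in summed replicate 1, a single library with fewer reads than the sums. In summed replicate 1 the log2 ratio of RM over BY stood apart for GAS2 at -5.86 (-4.76 to -4.56 in the others), IRA2 at 0.31 (-0.07 to 0.05 in the others) and COX13 at 1.04 (0.75 to 0.84 in the others). The same replicate held ERG11 at 0.19 (0.88 to 1.14 in the others), NTH2 at 0.30 (-1.36 to -0.75 in the others) and SIC1 at 0.57 (-1.10 to -0.92 in the others). The same replicate held RRP9 at 2.72 (0.43 to 0.97 in the others), RPS31 at -0.42 (-0.27 to -0.18 in the others) and GRS1 at -0.55 (-0.35 to -0.29 in the others). In summed replicate 3 the log2 ratio of RM over BY stood apart for MIG1 at 1.39 (0.27 to 0.56 in the others). In summed replicate 4 the log2 ratio of RM over BY stood apart for RPI1 at -1.40 (-0.62 to -0.46 in the others), HXK2 at -0.41 (-0.78 to -0.68 in the others) and SNF1 at 0.56 (0.71 to 0.79 in the others). The same replicate held DPS1 at 0.068 (-0.38 to -0.24 in the others). In summed replicate 5 the log2 ratio of RM over BY stood apart for YIR042C at 2.11 (2.98 to 3.42 in the others), CYT1 at 2.67 (1.70 to 2.06 in the others) and HXT2 at 1.56 (0.34 to 0.79 in the others). The same replicate held TIP1 at -0.70 (-1.12 to -0.98 in the others). In summed replicate 6 the log2 ratio of RM over BY stood apart for MPT5 at 1.49 (0.53 to 0.72 in the others). 

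The ratio of RM over BY differed between co-culture and hybrid, by the interaction test, in 24 named genes that either were among the largest differences or had opposite directions in the 2 kinds of culture. As log2 ratio in the co-culture minus that in the hybrid, the shift was towards RM in CWP1 (1.81), FRE2 (2.34), YPL088W (0.90), HMX1 (3.11), ERG28 (1.56) and YAP6 (1.57). It was towards BY in DSE2 (-4.91), DSE1 (-5.06), GAS2 (-2.43) and QDR2 (-3.56). With called ratios of opposite sign, the shift was towards RM in PET9 (1.10), YHB1 (0.56), ERG10 (0.65), OLE1 (2.21), ACS2 (1.31), TPO1 (1.36), PGI1 (0.22) and FKS1 (0.40). Likewise with opposite signs, it was towards BY in CTS1 (-4.42), RPI1 (-1.64), SUN4 (-1.49), VTC3 (-1.79), BAT2 (-2.88) and STI1 (-0.65). Among these reversals the hybrid log2 ratio was small in ERG10 (-0.09), PGI1 (-0.09), PET9 (-0.14), ACS2 (-0.15), VTC3 (0.14) and FKS1 (-0.17). Whether such signs hold under another scaling was not tested. RPS31 has 2 near-identical copies, so its own value above is uncertain.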

How the results depend on the processing

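Counts of called gene pairs (1109, of which 482 higher in RM and 627 in BY) fell to 586 (320 and 266) with DESeq2, and to 610 (307 and 303) with a minimum of 500 reads, where fewer gene pairs are tested. Calls beyond 2-fold numbered 151, 52 with the 500-read minimum and 283 with no read minimum. The cause of the gap between edgeR and DESeq2 was not tested. Leaving out each summed replicate gave 956 to 1097 calls. The interaction with the hybrid gave 566 calls, 302 with DESeq2 (114 towards BY), and 460 to 570 when a replicate of either kind was left out. Without the replicate block, which pairs both columns of a library, there were 1096 calls, all among the 1109, and 501 interaction calls, all among the 566. Single libraries as units gave 1111 and 576. The BY share was 45.44% without the 20 gene pairs with most reads. Of 151 named called genes 6 lost the call in some leave-one-out fit (ARO9, GRE3, HSP12, MIG1, MKT1 and RPA34), and 20 lost it with DESeq2. Uncalled ASH1 was called without replicate 1, and GPA1 without replicate 1 or 4 (adjusted p = 0.0457 and 0.0293), with TMM scaling, with the 500-read minimum and with single libraries. The log2 ratios of 3 uncalled genes changed sign when a replicate was left out, that of IRA2 between -0.020 and 0.038, of CAT5 between -0.12 and 0.13, and of SIR3 between -0.048 and 0.18. Depth limits low genes most: with about 100 reads, 21 of 100 gene pairs were called.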

Other observations

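Of 1653 adjacent, non-overlapping tested gene pairs along the chromosomes, 287 had both genes called, and 163 of these (56.8%) were called in the same direction. Over all tested genes 39.9% were called, and 43.5% of those calls were in the RM direction. Many neighbours would therefore share a direction without clustering, and whether 56.8% exceeds that was not tested. The read minimum left out several genes with lopsided counts that were noticed after their values were seen. DNF2, a phospholipid flippase, had 80 BY and 0 RM reads, FRE4, an iron reductase, 7 BY and 54 RM reads, ERG29, of sterol synthesis, 15 BY and 0 RM reads, and ARE2, a sterol acyltransferase, 18 BY and 67 RM reads.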
